A study of Mus musculus with 9 samples.

Results

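The genes described here are 34 markers of macrophages, neutrophils and B cells, 20 of them myeloid and 14 of the B lineage, read in thymic tumours and in sorted thymocytes of mice with constitutively active β-catenin. They were taken from a named list of markers, which was chosen with earlier results of these data known. Each was read by 1 probe set (a group of oligonucleotides for 1 transcript): the one assigned to that gene alone with the highest mean log2 signal over the 9 arrays. All 34 were present among the 18193 genes named on the array. Every mouse was C57Bl/6 and carried the R26NC allele on both chromosomes, controls included. The tumour group held whole thymic lymphomas of 4 CD4Cre+ mice killed when sick, aged 28, 26, 23 and 21 weeks (tumours 1 to 4), of which at least 95% of cells carried both CD4 and CD8. The pre-transformed group held CD4+CD8+ double-positive (DP) thymocytes of 3 CD4Cre+ mice aged 6 weeks, and the control group those of 2 CD4Cre- mice of the same age, both sorted to a DP purity over 98%. Cd4 sequences drive Cre in T lineage cells, where it switches on the β-catenin transgene. Tumours differed from both sorted groups also in age, in the lack of a sort, in RNA input (2.5 µg against 0.1 µg) and in the labelling kit, and these cannot be told apart. In RNA from many cells, fewer cells of a type and less RNA per cell cannot be told apart either.

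Macrophages and neutrophils descend from myeloid progenitors under the transcription factors PU.1 (Spi1) and C/EBPα (Cebpa), and B cells under EBF1 and PAX5. A thymus holds macrophages, which clear the many thymocytes that die there, together with dendritic cells and a small population of B cells. DP thymocytes are T cell precursors and are not a main source of the products described here, with exceptions such as Cd79b, which was bright in these sorted cells.

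Tumours 1, 3 and 4 carried the signals of most of these genes, and tumour 2 carried almost none of them. Summed over the 20 myeloid members, signals were 6401, 262, 6714 and 5758 in tumours 1 to 4, against 303, 637 and 427 in the pre-transformed samples and 525 and 347 in the controls. The 14 B cell members summed to 893, 69.1, 732 and 1200 in the tumours, against 280, 289 and 276 in pre-transformed cells and 304 and 334 in controls. Such sums are dominated by the bright probe sets, Cd79b in the sorted B cell sums among them. Tumours 1, 3 and 4 each lay above all 5 sorted arrays while tumour 2 did not for 28 of the 34 members, against 4.0% of the 11588 genes tested. By the probe sets chosen, tumour 2 was the lowest of the tumours for 32 of the 34, with Itgam and Ebf1 as exceptions. Of all genes tested, 28.9% had their lowest tumour signal there. Tumour 2 lay below every sorted array for 15 of the 34, a share no larger than the 44.3% of all genes. All 4 tumours exceeded all sorted arrays for 3 members, Chil3, Alox5ap and Cxcr5, against 21.9% of all genes. For Chil3 the signal of tumour 2, 2.4, was below 7.8, the highest signal of a bacterial probe set (a marker of background) on that array. In the spread among tumours the members also stood apart, with a median SD of 2.57 on the log2 scale against 0.42 over all genes tested.

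The labelled cell type was present on every array, tumour 2 included. Cd4 read 1095, 1216, 1725 and 1008 in tumours 1 to 4, against 832, 1069 and 1110 in pre-transformed cells and 707 and 738 in controls. Cd8a read 2555, 2056, 2946 and 2585 in the tumours, against 3931, 3892 and 3710 in pre-transformed cells and 3596 and 3635 in controls. Signals were the authors' MAS5 values (one linear intensity per probe set, each array scaled to the same trimmed mean of 100). Probe sets for bacterial transcripts, which mark the background, reached 7.8 to 13.9 on tumour arrays and 2.4 to 5.0 on sorted arrays, with the lowest tumour value on tumour 2. The 65th percentile of an array ran from 28.5 on tumour 2 to 44.6 on pre-transformed 1. A group mean below that percentile of its own arrays is called dim here. For a change against a dim mean, the fold is given as "at least", with the dim group set to that percentile, and no fold is given where both means were dim. Of the 34 members, 26, 2, 23 and 27 reached the percentile on tumours 1 to 4, against 1, 7 and 4 on the pre-transformed arrays and 4 and 4 on the controls. The pair on tumour 2 were Itgam and Alox5ap.

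**Figure D1:**
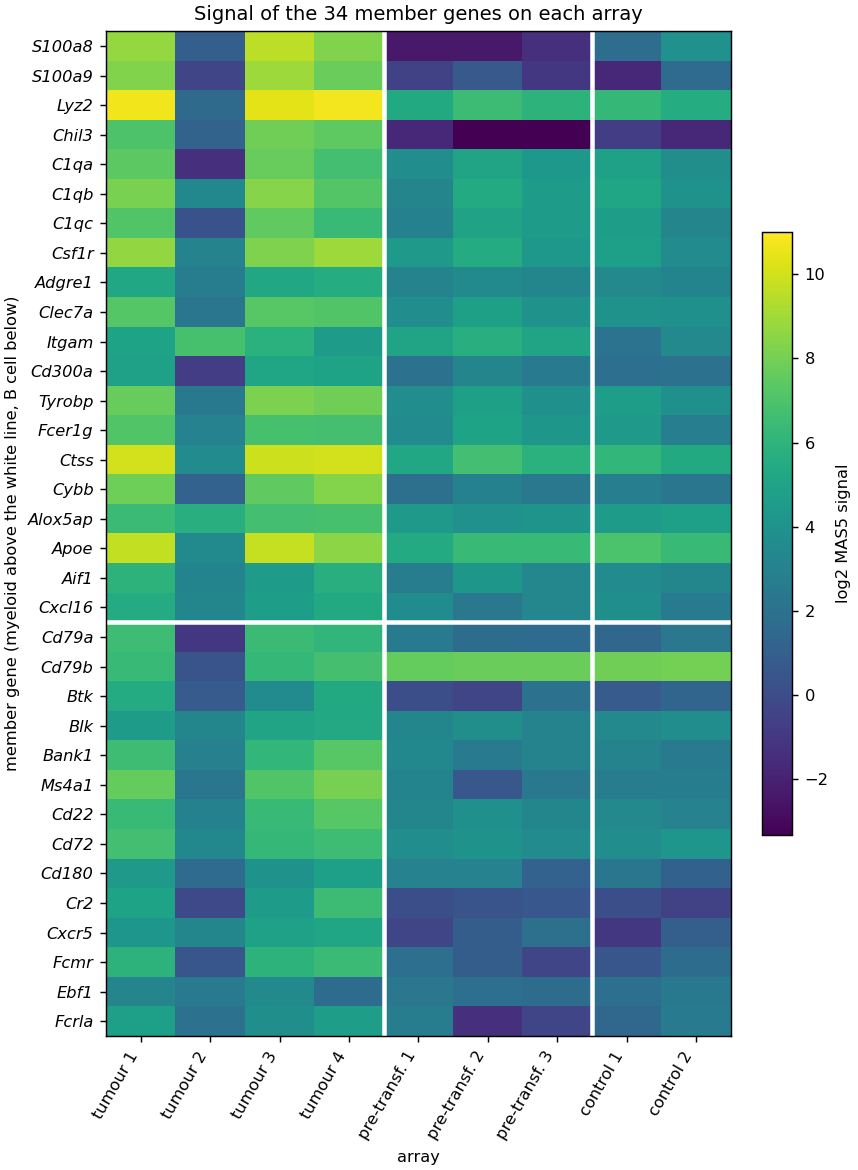
Log2 MAS5 signal (colour) of the 34 member genes (rows, myeloid above the white line and B cell below) on the 9 arrays (columns: 4 tumours, 3 pre-transformed, 2 controls). Tumours 1, 3 and 4 are bright for most rows, the column of tumour 2 is dark for 32 of 34 relative to the other tumours, and Cd79b is the one row in which every sorted column is brighter than all 4 tumours.

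All 4 genes of neutrophil granules and secreted myeloid products were higher in tumours 1, 3 and 4 than on any sorted array. S100a8 and S100a9 encode the calcium-binding subunits of calprotectin, an abundant cytosolic protein of neutrophils. S100a8 read 420, 2.0, 776 and 309 in tumours 1 to 4, against 0.2, 0.2 and 0.4 in pre-transformed cells and 3.5 and 15.2 in controls. S100a9 read 311, 0.8, 480 and 212 in the tumours, against 0.7, 1.6 and 0.5 in pre-transformed cells and 0.3 and 3.2 in controls. For both genes tumour 2 lay within the sorted range, where all values but that of S100a8 in control 2 were under 5.0, the highest bacterial probe set on sorted arrays. Against pre-transformed cells S100a8 rose by 8.88 ± 1.76 on the log2 scale (SE, limma, adjusted p = 0.00198), at least 2.72-fold, and S100a9 by 6.43 ± 1.98 (adjusted p = 0.0198), at least 1.62-fold. Without tumour 2 the bounds were at least 10.6-fold and at least 7.23-fold. Tumour 2 was set aside, here and below, because it was low for these same members. Results without it describe tumours 1, 3 and 4 and are no independent support for a rise. The log2 changes themselves rest on pre-transformed signals at background, so the bounds are the safer measure. Each SE also rests on a spread shared by all groups. S100a8 varied far more among tumours (SD 3.97 on the log2 scale) than among pre-transformed samples (0.58). The SE and adjusted p with all 4 tumours can thus be too small for such genes. Chil3, a chitinase-like protein of mouse macrophages and neutrophils, read 125.9, 2.4, 238 and 177 in the tumours, against 0.3, 0.1 and 0.1 in pre-transformed cells and 0.6 and 0.3 in controls. It rose at least 1.37-fold (adjusted p = 0.001), and at least 3.99-fold without tumour 2.

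Lyz2, the lysozyme of macrophages and neutrophils, was a member whose test turned on 1 tumour. It read 1659, 3.1, 1376 and 1741 in tumours 1 to 4, against 42.0, 89.6 and 60.7 in pre-transformed cells and 73.3 and 46.9 in controls. Tumours 1, 3 and 4 lay above every sorted array and tumour 2 below every one of them. With all 4 tumours the log2 change against pre-transformed cells was 2.45 ± 1.90 (SE, adjusted p = 0.297), which did not pass. Without tumour 2 it was 4.70 ± 0.28 (adjusted p = 7.22e-06), a 25.9-fold higher level.

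The 3 chains of complement C1q, the recognition unit of the classical pathway and a product of tissue macrophages, moved alike over the arrays. C1qa read 170, 0.4, 205 and 107 in tumours 1 to 4, against 13.0, 32.9 and 19.7 in pre-transformed cells and 29.2 and 13.5 in controls. C1qb read 281, 10.2, 332.5 and 145.5 in the tumours, against 9.1, 43.5 and 24.4 in pre-transformed cells and 33.7 and 16 in controls. C1qc read 138, 1.2, 179 and 81.0 in the tumours, against 7.8, 30.9 and 22.8 in pre-transformed cells and 26.6 and 9.1 in controls. In each chain tumour 3 was highest, tumour 4 the lowest of the 3 bright tumours, and pre-transformed 2 the highest sorted array. The genes lie side by side on chromosome 4. None passed against pre-transformed cells with all tumours (log2 changes 0.78, 2.35 and 1.16, adjusted p = 0.74, adjusted p = 0.0905 and adjusted p = 0.537). Without tumour 2 all 3 rose, C1qa at least 3.55-fold, C1qb at least 5.41-fold and C1qc at least 2.88-fold. The direction of C1qa turned when tumour 3 was left out instead (log2 change −0.07 against pre-transformed cells and −0.03 against controls).

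Among the surface receptors, Csf1r encodes the receptor for the growth factor M-CSF, on which most macrophages depend. It read 412, 8.4, 301 and 475 in tumours 1 to 4, against 20.5, 45.3 and 20.0 in pre-transformed cells and 27.4 and 12.0 in controls. The log2 change of 2.49 ± 1.22 (SE, adjusted p = 0.107) became 3.88 ± 0.40 without tumour 2 (adjusted p = 6.09e-05), at least 8.69-fold higher. Clec7a encodes Dectin-1, a receptor for fungal β-glucan. It read 150, 4.9, 158 and 136 in the tumours, against 12.8, 28.0 and 15.6 in pre-transformed cells and 16.2 and 14.4 in controls, and was at least 3.38-fold higher without tumour 2. Adgre1, which encodes the macrophage antigen F4/80, read 37.9, 6.6, 36.4 and 46.8 in the tumours, against 8.4 to 11.1 on the 5 sorted arrays. Cd300a, an inhibitory receptor of myeloid cells, read 29.5, 0.6, 35.7 and 31.4 in the tumours, against 3.7 to 9.3 in sorted cells. Both were dim as group means, and for both tumours 1, 3 and 4 lay above every sorted array and tumour 2 below.

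Itgam, which encodes the αM integrin chain CD11b of neutrophils, monocytes and many macrophages, did not follow the other myeloid members. It read 31.4, 113, 57.7 and 23.4 in tumours 1 to 4, against 33.3, 53.4 and 33.0 in pre-transformed cells and 4.4 and 10.8 in controls. Tumour 2 was thus the highest of all 9 arrays, and tumours overlapped the pre-transformed samples. The log2 change between them was 0.27 ± 0.55 (SE, adjusted p = 0.698), and −0.16 without tumour 2. Itgam passed against controls both in tumours (log2 change 2.76 ± 0.62 SE, adjusted p = 0.00545, at least 1.15-fold) and in pre-transformed cells (2.49 ± 0.43 SE, adjusted p = 0.033, both means dim). Between pre-transformed and control cells it was the only member of the 34 that passed, against 1.73% of all genes tested, and the call was lost without pre-transformed 1, pre-transformed 3, control 1 or control 2.

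Tyrobp and Fcer1g encode the adaptors DAP12 and the Fc receptor γ chain, which couple many myeloid receptors to the kinase Syk. Tyrobp read 206, 5.5, 284 and 237 in tumours 1 to 4, against 12.9, 27.8 and 14.8 in pre-transformed cells and 24.9 and 14.6 in controls. Fcer1g read 138, 8.3, 112 and 110 in the tumours, against 12.0, 31.4 and 19.2 in pre-transformed cells and 20.3 and 7.0 in controls. Without tumour 2 they were at least 5.49-fold and at least 2.74-fold higher than in pre-transformed cells, and neither passed with it (adjusted p = 0.108 and adjusted p = 0.146).

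The remaining myeloid members are enzymes, a lipid carrier and other proteins. Ctss encodes cathepsin S, the lysosomal protease that trims the invariant chain of MHC class II in antigen-presenting cells. It read 1054.5, 11.9, 965 and 1023 in tumours 1 to 4, against 39.0, 104.8 and 57.0 in pre-transformed cells and 71.2 and 42.0 in controls. The 3 bright tumours agreed closely (SD 0.07 on the log2 scale, n = 3), and the log2 change of 2.44 ± 1.38 (SE, adjusted p = 0.158) became 4.04 ± 0.34 without tumour 2 (adjusted p = 2.53e-05), 16.5-fold. Apoe, the apolipoprotein E gene of macrophages and other cells, read 811, 11.4, 844 and 365 in the tumours, against 43.1, 80.3 and 81.6 in pre-transformed cells and 122 and 81.7 in controls. It was 9.60-fold higher without tumour 2 (adjusted p = 9.51e-05) and did not pass with it (adjusted p = 0.244). Cybb, which encodes the catalytic subunit of the phagocyte NADPH oxidase, read 229.5, 2.3, 179 and 331 in the tumours, against 3.9, 7.9 and 5.4 in pre-transformed cells and 7.0 and 5.0 in controls. It passed narrowly with all 4 tumours (log2 change 3.76 ± 1.45 SE, adjusted p = 0.0488, at least 1.71-fold), and the call was lost when any array but tumour 2 was left out.

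Alox5ap, the activating protein of 5-lipoxygenase in leukotriene synthesis, was a member that tumour 2 carried as well. It read 87.9, 49.9, 106 and 113 in tumours 1 to 4, against 20.7, 15.0 and 17.0 in pre-transformed cells and 23.9 and 26.8 in controls, so that all tumours exceeded all sorted arrays. The log2 change of 2.29 ± 0.32 (SE, adjusted p = 0.000247), at least 1.95-fold, was 2.55 without tumour 2. Aif1, a calcium-binding protein of macrophages, read 62.0, 8.9, 24.2 and 52.4 in the tumours, against 6.6 to 18.8 on the sorted arrays. Cxcl16, a membrane-bound chemokine, read 45.3, 9.6, 25.1 and 41.6 in the tumours, against 5.4 to 13.9. Of this pair Cxcl16 passed with all tumours (adjusted p = 0.0492) and lost its call when any array but tumour 2 was left out, and both means were dim.

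Over the 20 myeloid members, 6 were called higher in tumours than in pre-transformed cells at a Benjamini-Hochberg adjusted p under 0.05: S100a8, S100a9, Chil3, Cybb, Alox5ap and Cxcl16. Over all genes 23.8% were called higher and 31.1% lower in that comparison, so that the myeloid count was near the background. S100a9, Chil3 and Cybb passed the filter on low values through tumour arrays only, which favours calls as higher. S100a8 reached the array median on control 2 but on no other sorted array, and the filter asks for 2 arrays. It too was thus tested because of its tumour signals. With no filter 4 myeloid members were called higher. Without tumour 2, 19 of the 20 were called higher, all but Itgam, with 24.8% of all genes called higher and 31.4% lower. That count follows in part from leaving out the tumour that was low for these same genes. The myeloid count was 3 without tumour 1, tumour 3, tumour 4, pre-transformed 1 or pre-transformed 3. The median log2 change over the 20 was 2.06 with all tumours and 3.16 without tumour 2, beside −0.13 and −0.12 over all genes tested.

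**Figure D2:**
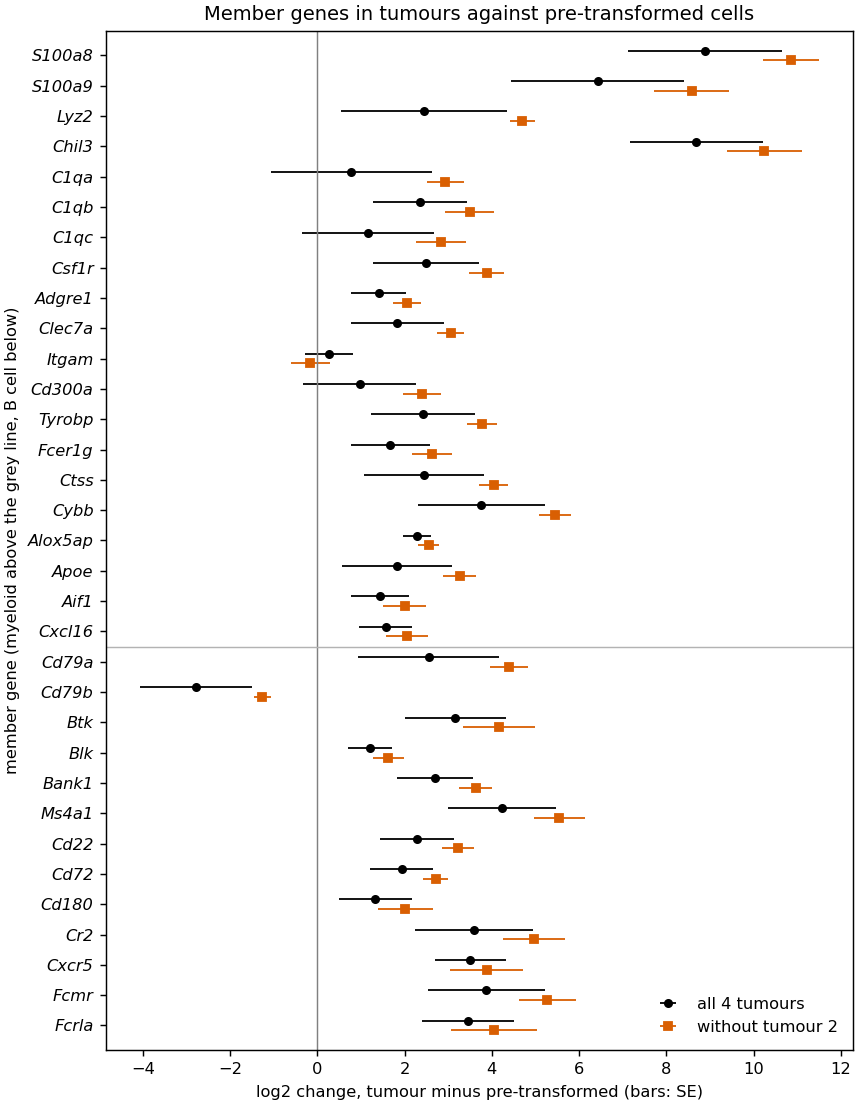
Log2 change in tumours against pre-transformed cells for the 33 members tested (points, bars are SE from limma), with all 4 tumours (black circles) and without tumour 2 (orange squares). The orange points lie to the right of the black ones with shorter bars in most rows, except Itgam, where the value turns to −0.16, and Cd79b is the one member clearly left of 0.

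The B cell receptor signals through the CD79A and CD79B chains, and these 2 genes differed. Cd79a read 95.6, 0.5, 87.2 and 67.9 in tumours 1 to 4, against 5.8, 3.3 and 3.2 in pre-transformed cells and 2.7 and 5.1 in controls. Cd79b read 80.7, 1.3, 73.6 and 108.5 in the tumours, against 196, 215 and 212 in pre-transformed cells and 235 and 254 in controls. Tumours 1, 3 and 4 thus lay above all sorted cells for Cd79a and below all of them for Cd79b, and tumour 2 was the lowest array for both. Without tumour 2 Cd79a was at least 1.89-fold higher than in pre-transformed cells (adjusted p = 4.95e-05), and Cd79b fell by 1.26 ± 0.19 on the log2 scale (SE, adjusted p = 0.00041), 2.40-fold lower. With it neither passed (adjusted p = 0.203 and adjusted p = 0.0902).

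Btk and Blk encode kinases downstream of the B cell receptor, and Bank1 a scaffold of the same pathway. Bank1 read 94.7, 7.6, 72.7 and 155 in tumours 1 to 4, against 10.4, 6.3 and 8.6 in pre-transformed cells and 8.5 and 5.8 in controls, and rose at least 1.22-fold (log2 change 2.69 ± 0.87 SE, adjusted p = 0.0239). Btk read 44.1, 1.7, 11.9 and 41.0 in the tumours, against 0.8 to 4.2 on the sorted arrays. Blk read 24.5, 9.7, 33.4 and 39.9 in the tumours, against 8.4 to 13.6. Btk passed with all tumours (adjusted p = 0.0407) and Blk missed (adjusted p = 0.0663), while both passed without tumour 2, with dim means throughout.

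Surface proteins of B cells gave most of the B lineage calls. Ms4a1, which encodes CD20, read 198, 5.0, 139 and 269.7 in tumours 1 to 4, against 8.9, 1.5 and 5.4 in pre-transformed cells and 6.8 and 6.8 in controls. It rose by 4.23 ± 1.24 on the log2 scale (SE, adjusted p = 0.0155), at least 1.78-fold, and at least 4.46-fold without tumour 2. Cd22, a sialic acid-binding inhibitory coreceptor, read 80.8, 7.9, 84.3 and 158 in the tumours, against 8.3 to 14.8 on the sorted arrays. Cd72, another inhibitory coreceptor, read 105.7, 10.1, 74.8 and 92.6 in the tumours, against 12.0 to 18.1. Tumour 4 was highest for Cd22 and tumour 1 for Cd72, and tumour 2 lay below every sorted array for both. They rose at least 1.23-fold (adjusted p = 0.0421) and at least 1.19-fold (adjusted p = 0.0435), and at least 2.34-fold and at least 2.06-fold without tumour 2.

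The complement receptor Cr2 (CD21), the chemokine receptor Cxcr5 that guides B cells to follicles, and Fcmr, the Fc receptor for IgM, had sorted signals at background. Cr2 read 31.6, 0.9, 23.0 and 89.0 in tumours 1 to 4, against 0.7 to 1.5 in sorted cells. Fcmr read 61.9, 1.4, 60.5 and 86.9 in the tumours, against 0.8 to 3.7. Cxcr5 read 18.1, 9.5, 29.7 and 35.5 in the tumours, against 0.5 to 3.9. Tumour 2 lay within the sorted range for Cr2 and Fcmr and above it for Cxcr5, although its Cxcr5 signal was in the range of the bacterial probe sets on tumour arrays. All 3 were called higher (adjusted p = 0.0449 for Cr2, adjusted p = 0.00505 for Cxcr5 and adjusted p = 0.0324 for Fcmr) with both means dim. Cd180, a toll-like receptor relative that tunes B cell activation, read 21.1, 3.2, 16.5 and 27.6 in the tumours, against 2.2 to 8.0, and passed without tumour 2 (adjusted p = 0.0209) but not with it (adjusted p = 0.2).

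Fcrla, an Fc receptor-like protein kept inside B cells, read 26.8, 4.1, 14.2 and 25.3 in tumours 1 to 4, against 0.4 to 6.6 in sorted cells, and was called higher (adjusted p = 0.0184) with both means dim. Ebf1, the transcription factor that specifies the B lineage, was the one member whose chosen probe set did not pass the filter on low values. It was not tested. This probe set read 9.2, 6.2, 11.5 and 3.4 in the tumours, against 3.3 to 5.6. Another of its probe sets read 15.7, 2.7, 5.1 and 20.6 in the tumours, with tumour 2 lowest, against 0.2 to 1.5. That one reached the array median on tumours 1 and 4, enough for the filter. Over the 5 probe sets of Ebf1 the highest signal was 20.6 in tumours and 5.8 in sorted cells. Ebf1 was thus dim on every array, while Cd79a, Ms4a1 and Bank1 were bright in 3 tumours.

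Of the 14 B cell members 9 were called higher in tumours than in pre-transformed cells, namely Btk, Bank1, Ms4a1, Cd22, Cd72, Cr2, Cxcr5, Fcmr and Fcrla, against 23.8% of all genes called higher and 31.1% lower. All of these but Cd22 and Cd72 passed the filter on low values through tumour arrays only. That favours calls as higher, so the count is no fair match to the share over all genes. With no filter 8 were called higher. Limma called 0 B cell members lower, and 0 were lower at an unadjusted p under 0.05. Without tumour 2 there were 12 higher and 1 lower, Cd79b, against 24.8% and 31.4% of all genes. The B cell count was 3 without tumour 1, tumour 3, tumour 4 or pre-transformed 3, 1 without pre-transformed 2, and 5 without pre-transformed 1, control 1 or control 2. Of the 15 calls over both lineages, 9 had a bright tumour mean, and 4 held with each of the 9 arrays left out in turn: S100a8, Chil3, Alox5ap and Cxcr5. Of these 4, only Alox5ap passed the filter on low values without its tumour arrays. The median log2 change over the 14 was 2.62 with all tumours and 3.76 without tumour 2.

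Set against controls, tumours gave fewer calls with the same arrays standing apart. The comparison shares its tumour arrays with the one above. Of the 34 members 7 were called higher, S100a9, Chil3, Itgam, Alox5ap, Bank1, Cr2 and Cxcr5, against 20.5% of all genes called higher and 25.3% lower. Alox5ap (log2 change 1.75 ± 0.36 SE, adjusted p = 0.00352, at least 2.09-fold) held with every array left out in turn, and the other 6 each lost their call without at least 1 array. Without tumour 2 there were 31 higher and 1 lower, Cd79b, with 22.2% of all genes higher and 26.7% lower. Lyz2 was then 27-fold higher than in controls (adjusted p = 1.7e-05), Ctss 18.5-fold and Apoe 6.30-fold. The 2 others were Fcrla, which did not pass (log2 change 2.32, adjusted p = 0.11), and Ebf1. By lineage, 4 myeloid and 3 B cell members were higher with all tumours, and as many with no filter on low values. S100a9, Chil3, Bank1, Cr2 and Cxcr5 had passed that filter through tumour arrays only. The myeloid count was 2 without control 1 or control 2, and the B cell count 0 without control 1 and 1 without control 2 or without tumour 1, tumour 3 or tumour 4.

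Between the sorted groups members differed in both directions, and apart from Itgam none of the 33 tested passed. The median log2 change of pre-transformed against control cells was −0.04 over the 34 members, beside 0.02 over all genes tested. The log2 change of Lyz2 was 0.06 ± 0.33 (SE, adjusted p = 0.948) and that of Ctss 0.17 ± 0.40 (adjusted p = 0.863). S100a8 had the largest one of either sign, −4.86 ± 1.29 (adjusted p = 0.106), between dim means, with pre-transformed signals at background. Among the 5 sorted arrays, pre-transformed 2 was the highest for 14 of the 20 myeloid members and 2 of the 14 B cell members, where it was highest for 24.3% of all genes tested. Its Ctss signal of 104.8 compared with 39.0 to 71.2 on the other sorted arrays, and its Csf1r signal of 45.3 with 12.0 to 27.4.

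Tumours 1, 3 and 4 shared the signals but not in the same proportions. Tumour 3 was the highest of these for 11 of the 20 myeloid members, and tumour 4 for 9 of the 14 B cell members, where 39.6% and 33.2% of all genes tested were highest there. The median log2 difference of tumour 4 minus tumour 3 was −1.14 for the C1q chains and −0.80 for the neutrophil and secreted group, but 0.74 for the B cell surface proteins, beside −0.04 over all genes. Bank1 in tumour 4 was 2.13-fold its level in tumour 3 and Ms4a1 1.94-fold, while S100a8 was 0.398-fold and Apoe 0.433-fold. Lyz2, Ctss and Csf1r differed less, with ratios of 1.26, 1.06 and 1.58. These are single tumours with 1 array each, and no test was made between them.

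**Figure D3:**
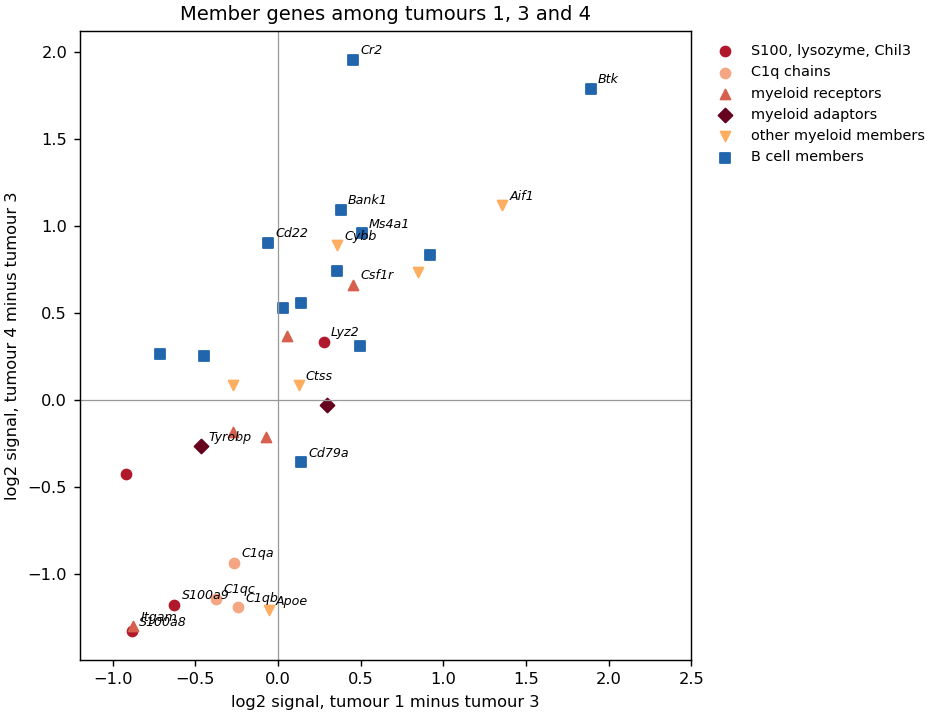
Each point is 1 of 33 members (Ebf1 left out as dim), placed by its log2 signal in tumour 1 minus tumour 3 (horizontal) and in tumour 4 minus tumour 3 (vertical), with symbols by gene group. B cell members (blue squares) lie mostly above 0 on the vertical axis and the C1q chains, S100a8, S100a9 and Apoe below it.

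The choice of probe set bore little on tumour 2 being the lowest tumour. In all, 9 members had more than 1 probe set of a single gene. These were 25 probe sets, the chosen ones included, and in 21 tumour 2 was the lowest tumour. Its place against the sorted arrays depended more on the probe set. Another probe set of Csf1r read 20.1 in tumour 2, against at most 18.9 in sorted cells, and another of Cybb 9.4, against at most 5.3. Another of C1qb read 12.1, against up to 17.9. The other 25 members had 1 probe set each.

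The promoters of the members were read for the binding motifs of the lineage factors. Promoters here run from 250 bases before to 50 after a gene's start, from RefSeq (GRCm38.p6), and 14 myeloid and 10 B cell members were found there, with 17 and 12 promoters. Ctss (chr3:95526536-95526835, plus strand), C1qc (chr4:136892865-136893164, minus strand), Lyz2 (chr10:117282223-117282522, minus strand) and Cd79a (chr7:24897247-24897546, plus strand) are shown as a protease, a complement chain, the lysozyme and a B cell receptor chain whose tumour signals are given above. Each reads 5′ to 3′ along its gene, and capitals mark GAGGAA, the core of PU.1 sites, on either strand (TTCCTC on the other).
Ctss: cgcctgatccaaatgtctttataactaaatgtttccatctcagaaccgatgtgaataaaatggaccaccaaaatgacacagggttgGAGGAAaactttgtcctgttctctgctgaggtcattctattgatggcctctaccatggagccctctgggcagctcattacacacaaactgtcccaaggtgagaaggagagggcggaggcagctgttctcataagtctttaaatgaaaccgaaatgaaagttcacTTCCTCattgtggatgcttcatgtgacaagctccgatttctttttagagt
C1qc: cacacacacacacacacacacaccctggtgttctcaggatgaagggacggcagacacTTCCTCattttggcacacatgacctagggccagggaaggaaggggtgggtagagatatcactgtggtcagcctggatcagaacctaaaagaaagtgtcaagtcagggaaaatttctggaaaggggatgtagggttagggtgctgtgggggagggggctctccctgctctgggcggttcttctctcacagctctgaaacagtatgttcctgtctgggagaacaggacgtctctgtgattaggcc
Lyz2: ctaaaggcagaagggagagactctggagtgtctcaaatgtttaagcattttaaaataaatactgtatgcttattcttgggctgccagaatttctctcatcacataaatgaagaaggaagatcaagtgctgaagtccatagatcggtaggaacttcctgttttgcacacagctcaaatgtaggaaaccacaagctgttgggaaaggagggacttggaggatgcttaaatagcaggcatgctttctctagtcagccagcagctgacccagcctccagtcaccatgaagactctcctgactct
Cd79a: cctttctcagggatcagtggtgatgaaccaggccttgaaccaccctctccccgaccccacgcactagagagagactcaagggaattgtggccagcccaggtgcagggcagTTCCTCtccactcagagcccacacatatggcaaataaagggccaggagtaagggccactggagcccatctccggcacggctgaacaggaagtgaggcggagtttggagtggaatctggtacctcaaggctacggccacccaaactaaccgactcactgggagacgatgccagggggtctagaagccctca
The PU.1 core occurs at −164 and 1 from the gene start in Ctss, at −193 in C1qc and at −140 in Cd79a, and these letters are not in the Lyz2 window. GAGGAA was found in 12 of 17 myeloid and 6 of 12 B cell promoters, against 28.3% of all 32851 promoters, with both strands searched in every case. The longer GAGGAAG, which overlaps it, was found in 5 and 2, against 13.6%. The C/EBP pattern TTNNGNAA was found in 8 and 4, against 40.7%, and its variant TTGCNNAA in 2 and 1, against 10.8%. CCCNNGGG, the core of EBF1 sites, was found in 2 and 2, against 13.7%. A match describes letters in a window and shows no binding. Whether these factors had a part in the members' signals was not tested.

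The regulators themselves were mostly dim. Spi1, which encodes PU.1, read 35.7, 11.2, 47.8 and 36.8 in tumours 1 to 4, against 10, 9.2 and 8.8 in pre-transformed cells and 5.1 and 7.6 in controls, and was called higher (log2 change 1.64 ± 0.51 SE, adjusted p = 0.0208) with both means dim. Cebpa read 1.7 to 13.9 in tumours and 0.9 to 7.7 in sorted cells, and Pax5 1.1 to 3.6 and 1.0 to 5.0, and neither passed the filter on low values. Spib, a PU.1 relative of B cells and plasmacytoid dendritic cells, had the pattern of the members, with 51.6, 0.8, 77.6 and 82.0 in the tumours, against 6.1 to 13.0 in sorted cells. Pou2af1, a coactivator of B cell transcription, differed in that tumour 2 carried it too. It read 312, 145, 319 and 343 in the tumours, against 14.3, 18.5 and 11.9 in pre-transformed cells and 15.9 and 14 in controls, and rose at least 6.07-fold (log2 change 4.18 ± 0.33 SE, adjusted p = 1.49e-05).

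Markers of other cells were read beside the members, from lists chosen with earlier results of these data known. Their counts stand beside 23.8% of all genes called higher and 31.1% lower with all tumours. Without tumour 2 these shares were 24.8% and 31.4%. Many of the markers called, Camp, Marco, Cd83, Fcrl1 and Ciita among them, passed the filter on low values through tumour arrays only. That favours calls as higher, so the counts are no fair match to these shares. Of 27 further myeloid markers named on the array, 23 of them tested, 11 were called higher in tumours than in pre-transformed cells and 21 without tumour 2. Camp (log2 change 4.57, adjusted p = 0.00606) and Marco (4.54, adjusted p = 0.0226) were among them, both with dim means and pre-transformed signals at background. With no filter 11 of the 27 were called higher. Of 13 further B cell markers, 10 tested, 5 were higher and 1 lower, and 8 and 1 without tumour 2. With no filter 5 were higher and 1 lower. Among these Cd83 rose at least 1.46-fold (adjusted p = 2.79e-05), Fcrl1 was called higher with both means dim (adjusted p = 0.0325), and Cd37 had a lower level (log2 change −1.30, adjusted p = 0.0019). The 6 MHC class II genes summed to 3514, 51.1, 2875 and 3482 in tumours 1 to 4, against 266, 318 and 284 in pre-transformed cells and 250 and 202 in controls, the same split as the members. Their invariant chain gene Cd74 read 1077, 11.6, 957 and 938 in the tumours, against 51.4, 51.0 and 50.6 in pre-transformed cells and 42.2 and 35.2 in controls, and was 19.4-fold higher without tumour 2 (adjusted p = 9.35e-07) but did not pass with it (adjusted p = 0.118). Of the class II list 1 gene was called with all tumours, the class II transactivator Ciita (1.79, adjusted p = 0.0322, both means dim), and 5 without tumour 2.

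The immunoglobulin heavy chain gene Ighm read 5141, 239, 4997 and 1139 in tumours 1 to 4, against 1678, 1553 and 1832 in pre-transformed cells and 2555 and 2779 in controls. Tumours 1 and 3 lay above all sorted cells, tumours 2 and 4 below, and no change passed against pre-transformed cells (log2 change −0.05, adjusted p = 0.966). Of 6 plasma cell markers, 5 tested, 1 was higher and 1 lower, Sdc1 (4.59, adjusted p = 8.66e-06) and Xbp1 (−1.26, adjusted p = 0.000622). Of 9 dendritic cell markers, 6 tested, 1 was higher, Flt3 (2.77, adjusted p = 0.0156), with both means dim. With all tumours these counts were no larger than the shares over all genes, 23.8% higher and 31.1% lower. Without tumour 2, 3 plasma cell and 3 dendritic cell markers were called higher, against 24.8% of all genes. Xbp1 was again the 1 called lower, against 31.4%. The members' split was seen in 2 of the 9 dendritic cell markers, Itgax and Batf3. Itgax read 58.1, 7.0, 64.7 and 64.5 in tumours 1 to 4, against 1.1 to 13.3 in sorted cells. Flt3 and Batf3 had passed the filter on low values through tumour arrays only.

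In their sums, lists of cells of other kinds split the tumours less. Their counts of calls again stand beside 23.8% of all genes called higher and 31.1% lower. The members' split was seen for 2 of 6 fibroblast and 2 of 7 NK cell markers, Col3a1 and Nkg7 among them. It was seen for 1 thymic epithelial, 1 endothelial, 1 mast cell and 0 erythroid markers, against 4.0% of all genes. Without tumour 2, 2 fibroblast, 2 NK cell, 1 thymic epithelial and 1 erythroid marker were called higher, against 24.8%. That count was 0 for the endothelial and mast cell lists. The 7 endothelial markers summed to 381, 182, 240 and 232 in tumours 1 to 4, against 200, 169 and 156 in pre-transformed cells and 182 and 151 in controls, and 6 fibroblast markers to 103, 41.6, 62.8 and 90.6 in the tumours, against 14.7 to 22.1 in sorted cells. Of the 2 endothelial and 3 fibroblast markers tested, Egfl7 (1.00, adjusted p = 0.0464, and adjusted p = 0.059 without tumour 2) and Dcn (2.67, adjusted p = 0.00569) were called higher, each with dim means. With no filter on low values 0 endothelial markers and 2 fibroblast markers, Dcn and Lum, were called. Of 7 NK cell markers, 4 tested, Gzma fell by 2.56 (adjusted p = 5.77e-05), and of 5 erythroid markers, 2 tested, Alas2 was called higher (adjusted p = 0.00491) with both means dim. With no filter Eomes, Hba-a1 and Slc4a1 of these lists were called higher too, with dim means. Of the 4 thymic epithelial markers (of 7) and the 1 mast cell and basophil marker (of 6) tested, limma called 0 with all tumours, and 0 had an unadjusted p under 0.05. With no filter it called Krt14 (adjusted p = 0.00901), Cma1 (adjusted p = 0.00582) and Mcpt4 (adjusted p = 0.0449) higher, all with dim means. The 9 DP thymocyte markers summed to 10927, 10721, 14874 and 13732 in the tumours, against 26406, 28437 and 27507 in pre-transformed cells and 25103 and 26783 in controls, and 8 were called lower, Ptcra (−5.74, adjusted p = 5.40e-06) and Rag2 (−3.01, adjusted p = 0.000276) the most. For β-actin the log2 ratio of 3′ to 5′ signal, a sign of RNA quality and labelling, was 0.62, 0.54, 0.92 and 1.14 in tumours 1 to 4, against 0.20 to 0.35 in sorted cells. For Gapdh it was −0.53, −0.40, −0.10 and −0.22 in the tumours, against −0.34 to −0.01 in sorted cells, and the groups overlapped. The part of these other cells, of RNA quality and of labelling in the members' signals was not tested.

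**Figure D4:**
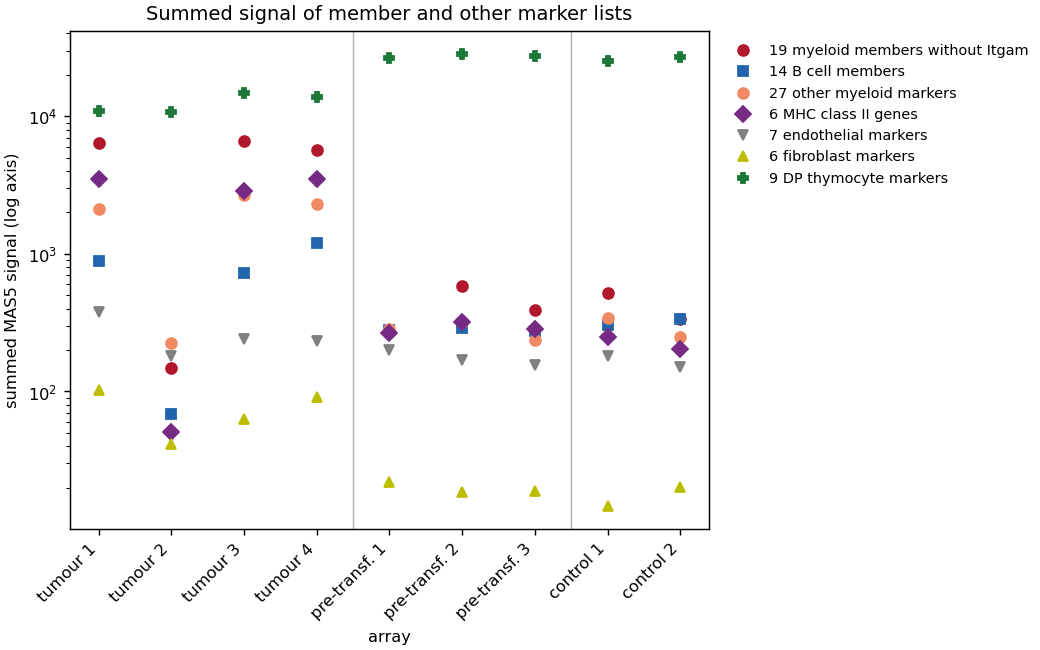
Summed MAS5 signal (vertical, log axis) of the members and of 5 other marker lists on each of the 9 arrays (4 tumours, 3 pre-transformed, 2 controls). Myeloid, B cell and MHC class II sums fall together at tumour 2, to 148, 69.1 and 51.1 (myeloid without Itgam), while the DP thymocyte sum there is 10721, near that of tumour 1.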

How the data were processed

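RNA of 9 samples was read on 1 Affymetrix mouse array each. The authors deposited signal intensity (MAS5, per the submitters' processing notes), linear and 1 value per probe set. The sources used here name no MAS5 version. Trimmed by 2% at either end of its 45101 probe sets, each array had a mean of 100. Control probe sets (64) were left out, values of 0 (218) set to 0.1, and log2 taken with no further normalization. Of 45037 probe sets, 34945 named 1 gene, 932 several and 9160 none, with symbols updated through RefSeq. Each gene was read by its single-gene probe set with the highest mean, and 11588 of 18193 genes, at or above the median of the array on at least 2 arrays, were tested.

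Tests were run in limma 3.58.1 under R 4.3.3 (lmFit, eBayes with trend), and calls required a Benjamini-Hochberg adjusted p below 0.05 across all genes tested. Tumour comparisons used all 9 arrays and pre-transformed against control the 5 sorted arrays. The groups of a fit shared their estimate of the spread of each gene, although most members varied more among tumours. The method was also run on simulated data, in which a gene had the same SD in all groups and an equal shift in all tumours. These data held no outlying tumour and no wider tumour spread, so they do not show how the method performs for the members. Samples came from separate mice, and the number of arrays limits the precision. Same-numbered samples did not deviate together, so no pairing was used.

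All 34 members are named. Of 12 other lists up to 2 genes called in each direction with the largest log2 change against pre-transformed cells are named, with Spi1, Cebpa, Pax5, Spib, Pou2af1, Ighm, Cd74, Cd4 and Cd8a whatever their values. Members and lists were chosen with earlier results of these data known. Figures were drawn with matplotlib 3.10.9. Alternatives were other filters, quantile normalization, median centring, an offset of 16, a common floor of 40.5, the mean of probe sets, no trend, array weights, a replicate block, other sets of arrays and each array left out in turn.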

Additional observations from a re-analysis of the deposited data

Results flagged for a closer look

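Tumour 2 stood apart from the other 3 tumours in the log2 signal of 19 of the 34 members, by the gap to its nearest neighbour as a share of the range over the 4 tumours (Dixon's ratio, past its critical value at the 95% level for 4 samples). The same held for 7.21% of all genes tested with any of the 4 tumours apart, and chance alone gives about 5%. In each case below tumour 2 was the lowest tumour. Among the neutrophil and secreted products the ratio was 0.845 for S100a8, 0.872 for S100a9, 0.963 for Lyz2 and 0.861 for Chil3. It was 0.896 for C1qa and 0.842 for C1qc. Among the receptors it was 0.887 for Csf1r, 0.872 for Adgre1, 0.957 for Clec7a and 0.953 for Cd300a. The adaptors Tyrobp and Fcer1g had ratios of 0.918 and 0.919, and the enzymes Ctss and Cybb of 0.98 and 0.876. Among B cell members it was 0.935 for Cd79a, 0.912 for Cd79b, 0.834 for Ms4a1, 0.853 for Cd72 and 0.912 for Fcmr. Of 9 other genes named whatever their values, 3 also passed, Spib at 0.9, Pou2af1 at 0.892 and Cd74 at 0.969. Pou2af1 was still bright in tumour 2, with a signal of 145.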

How the results depend on the processing

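Leaving out each array in turn, the count of myeloid members called higher in tumours than in pre-transformed cells (6) ran from 3 to 19 and that of B cell members (9) from 1 to 12, with B cell members called lower (0) from 0 to 1. Against controls these were 2 to 20 (4 with all arrays), 0 to 11 (3) and 0 to 1 (0). Members called between pre-transformed and control cells (1) ran from 0 to 1. A common floor of 40.5, which makes dim values equal, gave 1 myeloid and 0 B cell members higher against pre-transformed cells and 1 and 0 against controls. Array weights gave 16 myeloid members against pre-transformed cells, and 15 myeloid and 9 B cell members against controls. B cell members higher against pre-transformed cells were 5 with a stricter filter, quantile normalization or only these 2 groups in the fit, and 4 with a replicate block. Against controls they were 1 with a stricter filter, quantile normalization, no trend, a replicate block or only these 2 groups in the fit, and 6 with an offset of 16. Cd79b was called lower, a count of 1, in both comparisons with median centring, the offset, the common floor or array weights, and against pre-transformed cells with the replicate block. Between the sorted groups the count was 0 with no filter, the common floor, no trend or all 9 arrays in the fit, and 2 with the mean of probe sets. The replicate number pairs no samples here (correlations of same-numbered deviations ran from -0.02 to 0.09). The log2 change of C1qa ran from -0.07 to 2.93 against pre-transformed cells with arrays left out and from -0.03 to 2.97 against controls, where the replicate block gave -0.48, and that of Itgam from -0.16 to 0.6 against pre-transformed cells. Over all members and settings, 502 of the log2 changes against pre-transformed cells kept their direction and side of the threshold, 40 passed newly, 110 lost their call or fell to no change and 2 turned. Against controls these were 555, 54, 43 and 2. Beyond arrays left out, the cause of these changes was not tested. Dim signals limit most members in sorted cells and in tumour 2, where only bounds can be given.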

Other observations

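Jchain, which encodes the joining chain of secreted IgM and IgA, was chosen after its values were seen. It read 995, 0.8, 469 and 148 in tumours 1 to 4, against 11.4, 7.1 and 13.5 in pre-transformed cells and 7.8 and 10.5 in controls. Its order among the bright tumours, with tumour 1 highest and tumour 4 lowest, differed from that of Ms4a1, which was 198, 139 and 269.7 in tumours 1, 3 and 4. Jchain was at least 9.38-fold higher than in pre-transformed cells without tumour 2 (limma, adjusted p = 8.92e-05) and did not pass with it (adjusted p = 0.209). Tumour 2 carried Sdc1, which encodes the plasma cell and epithelial proteoglycan syndecan-1, at 144, beside 174, 177 and 99.3 in tumours 1, 3 and 4, and against 4.5 to 12.2 in sorted cells.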
